A study of Mus musculus with 12 samples.

Results

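A set of 10 nuclear genes were followed in RNA of sorted mouse dermal papilla (DP) cells. These were the 4 TCF/LEF factors Lef1, Tcf7, Tcf7l1 and Tcf7l2, the 4 Groucho-type repressors Tle1, Tle2, Tle3 and Tle4, and the 2 Pygopus genes Pygo1 and Pygo2. They were chosen by gene name, and all 10 were found among the 15557 genes listed at either age. The DP is the cluster of mesenchymal cells at the base of the hair follicle. Cells were sorted from back skin in anagen, the growth phase, at postnatal day 14 (P14) and day 16 (P16), from controls and from Fgfr1/Fgfr2 double mutants (dMF1/2), with 3 libraries in each of the 4 groups. The dMF1/2 mice were Cor-cre/+; Fgfr1Flox/Flox; Fgfr2Flox/Flox. Controls, labelled wild type, were by the study's methods either Cor-cre/+; Fgfr1Flox/+; Fgfr2Flox/+ or Cre-negative mice with both receptors floxed on both chromosomes. Since sorting relied on a Cre-dependent YFP reporter in ROSA26, a sorted control carried Cor-cre, a knock-in at Corin that acts in the DP after birth, and 1 floxed copy of each receptor gene. By the study's description each library was the DP transcriptome of 1 mouse. The control genotype of each control library is not given in the sources used here.

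TCF/LEF proteins bind DNA at Wnt target genes. Without Wnt signal they recruit Groucho (Tle) co-repressors and keep these genes silent. When Wnt ligand stabilizes beta-catenin, it enters the nucleus, displaces the repressor and builds an activating complex through Bcl9 and Pygopus. Lef1 and Tcf7 act mostly as activators, Tcf7l1 mostly as a repressor, and Tcf7l2 as either. In the hair follicle, Lef1 is made in the DP and in the epithelial matrix above it.

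Each library held 19302358 to 29860750 reads on protein-coding genes. Both P14 libraries numbered 1 stood apart, with 18.6% (control) and 22.0% (dMF1/2) of reads on the 4 matrix genes Col1a1, Col1a2, Col3a1 and Sparc, against 28.7% to 38.1% in the other 10. The targeted Fgfr1 had 10108, 7855 and 9046 normalized reads in P14 controls and 7510, 6451 and 6460 in P14 dMF1/2. At P16 it had 12337, 8370 and 9818 in controls and 7837, 6121 and 7410 in dMF1/2. Fgfr1 was thus lower in every mutant library of either day, though its adjusted p was 0.501 at P14 and 0.130 at P16. Fgfr2 overlapped between genotypes, and reads over a whole gene do not check the loss of a floxed exon. DP markers were abundant: the 18 listed genes summed to 127732 to 211911 normalized reads per library. The 12 keratinocyte markers listed on both days summed to 338 to 903. The immune list without Thy1, which fibroblasts share, summed to 194 to 463. Within it Ptprc, which defines leukocytes, stayed at or under 10.2, and Csf1r reached 311. Genes listed for neighboring mesenchyme were abundant too, with 17623 to 53481 for the 7 of the dermal sheath and 54579 to 86272 for the 8 of dermal fibroblasts, so these lists do not set the sorted cells apart from either. In such bulk samples, fewer cells of a type and less RNA per cell cannot be told apart.

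At P16 the dMF1/2 DP held more Tle2 and Pygo1 RNA than the control DP, by 2.06-fold and 1.47-fold. The Tle2 call held with any single library left out, while the Pygo1 call was lost on leaving out any of 5 of the 6 libraries. From P14 to P16, Lef1, Tcf7l1 and Tle2 fell in controls by 1.16, 0.72 and 0.98 on the log2 scale, and Tcf7l1 fell in dMF1/2 as well. Within dMF1/2, Lef1 was lower at P16 than at P14 too, short of the threshold by limma and past it by DESeq2. Between genotypes at P16, Lef1 was higher in dMF1/2, by 1.38-fold. That excess was short of the threshold by limma and past it by DESeq2 and when same-numbered libraries were paired. Tcf7 was lower in the mutants on both days, by the test used for every gene short of the threshold and past it when same-numbered libraries were paired.

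Sequences before transcript starts of Lef1, Tle2 and Pygo1 are shown because Lef1 and Tle2 both fell in controls while Tle2 and Pygo1 were both higher in dMF1/2 at P16. They are from RefSeq (GRCm38.p6), which matched all 10 genes with 18 transcript starts. The first bases after the printed Tle2 and Pygo1 starts were found in a GENCODE transcript of the gene. Those after both printed Lef1 starts were found in none. Each line gives the bases just before a start, on the + strand and 5′ to 3′. They cover chr3:131110047-131110296 (within an exon of the antisense gene Gm43352) and, before a second start inside the gene, chr3:131156044-131156293 for Lef1, chr10:81575037-81575259 for Tle2 (cut short before an annotated coding transcript, and itself inside the annotated gene, in an intron of coding transcripts that begin further upstream and in an exon of a retained-intron transcript) and chr9:72925395-72925644 for Pygo1. Capitals mark a match to a motif.
Lef1, first start: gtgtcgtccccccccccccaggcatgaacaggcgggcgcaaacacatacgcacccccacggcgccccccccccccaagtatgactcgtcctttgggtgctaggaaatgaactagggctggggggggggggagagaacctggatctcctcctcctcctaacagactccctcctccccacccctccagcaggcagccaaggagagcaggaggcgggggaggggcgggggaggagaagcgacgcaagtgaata
Lef1, start inside the gene: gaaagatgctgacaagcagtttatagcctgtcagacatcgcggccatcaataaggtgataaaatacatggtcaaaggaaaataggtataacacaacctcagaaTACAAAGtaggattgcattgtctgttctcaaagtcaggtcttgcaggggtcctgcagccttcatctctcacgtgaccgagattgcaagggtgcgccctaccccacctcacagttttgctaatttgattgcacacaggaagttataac
Tle2: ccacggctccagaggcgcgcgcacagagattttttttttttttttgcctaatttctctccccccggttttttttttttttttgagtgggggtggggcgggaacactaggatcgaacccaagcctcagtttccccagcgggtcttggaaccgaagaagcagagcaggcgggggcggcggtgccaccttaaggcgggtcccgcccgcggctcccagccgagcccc
Pygo1: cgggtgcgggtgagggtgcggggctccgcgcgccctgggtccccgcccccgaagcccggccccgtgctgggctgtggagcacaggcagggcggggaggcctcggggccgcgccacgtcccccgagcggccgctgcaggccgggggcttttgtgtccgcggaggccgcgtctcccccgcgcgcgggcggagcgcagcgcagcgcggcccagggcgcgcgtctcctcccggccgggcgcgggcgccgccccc
The TCF/LEF motif was searched as CTTTG followed by AA, AT, TA or TT on both strands of windows of 300 bases, from 250 before to 50 after a start. It occurred in 16.9% of all 32851 windows and in 2 of the 18 windows of the 10 genes. One match was CTTTGTA at Lef1's start inside the gene, on the opposite strand and thus read above as TACAAAG, with its first base 147 bases before the start. The other was CTTTGTT before the inner start of Tcf7l2, with its first base 14 bases before it. The ETS motif CCGGAAG, which does not overlap the first, occurred in 8.86% of all windows and in 1 window of the 10 genes, at a start of Tcf7. These are matches of letters and were not tested as binding sites.

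Among the TCF/LEF factors, Tcf7, a factor known from T cells and widely used in Wnt-responding tissue, had the highest level per length in controls. Levels are normalized reads per kilobase of merged exon, on one scale set over all 12 libraries. Tcf7 stood at 490 ± 41.7 (SD, n = 3) in P14 controls, followed by Lef1 at 355 ± 99.2, Tcf7l1 at 269 ± 9.50 and Tcf7l2 at 118 ± 7.11. The ranges of Lef1 and Tcf7l1 overlapped there, while the other neighbors in this order did not. In P14 dMF1/2, Lef1 came first at 382 ± 133, and Tcf7l1 (269 ± 15.0) and Tcf7 (265 ± 35.8) overlapped behind it. At P16 Tcf7 led in both genotypes, with 622 ± 115 in controls and 367 ± 98.2 in dMF1/2. Lef1 was at 154 ± 7.93 in P16 controls, overlapping Tcf7l1 at 164 ± 23.6, and at 213 ± 28.9 in P16 dMF1/2, above every Tcf7l1 value of that group. Tcf7l2 was last per length in all 4 groups. This order depends on the length scaling. In reads not scaled by length, Lef1 was above Tcf7 in P14 controls (means of 3121 and 1286) and in P16 dMF1/2 (1875 and 964). Tcf7 stayed above Lef1 in P16 controls (1632 and 1356). In P14 dMF1/2, unscaled Tcf7 (696) was below Tcf7l2 (1137).

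**Figure D1:**
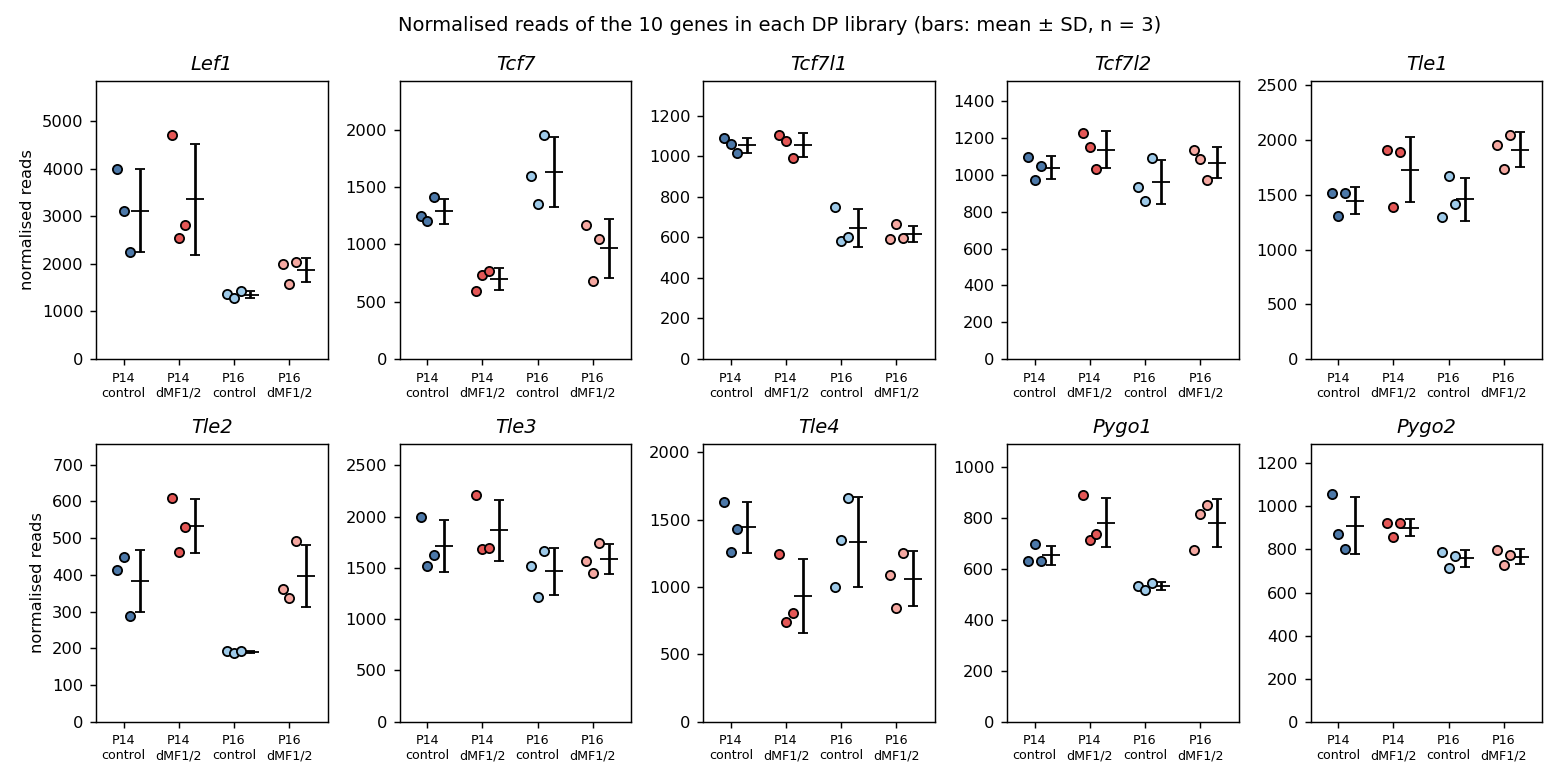
Normalized reads (linear axis from 0, own range per panel) of the 10 genes in the 12 libraries, with points for libraries 1, 2 and 3 from left to right and bars for mean ± SD (n = 3). Tle2, Pygo1 and Lef1 form tight low clusters in P16 controls (188 to 192, 516 to 547 and 1285 to 1424), and Tcf7 is lower in dMF1/2 on both days.

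Tcf7 (chromosome 11, 52252371 to 52283014, - strand; coordinates throughout are those of the tables, GRCm38) had 1246, 1203 and 1410 normalized reads in P14 controls and 590, 730 and 768 in P14 dMF1/2. At P16 it had 1594, 1350 and 1952 in controls and 1172, 676 and 1045 in dMF1/2. On both days every mutant library lay below every control library. Within-day comparisons used limma on log2(normalized reads + 1). The log2 difference, dMF1/2 minus control, was -0.89 ± 0.13 (SE) at P14 (adjusted p = 0.115) and -0.77 ± 0.21 at P16 (adjusted p = 0.0911). Neither passed the threshold of 0.05. Pairing same-numbered libraries of a day (the replicate block) gave an adjusted p of 0.0063 at P14 and 0.0094 at P16. Over every alternative tried it ranged from 5.9e-06 to 0.416 at P14 and from 0.0093 to 0.255 at P16. Between days Tcf7 changed by 0.33 ± 0.20 in controls (adjusted p = 0.270) and by 0.44 ± 0.20 in dMF1/2 (adjusted p = 0.206), neither past the threshold.

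Lef1 (chromosome 3, 131110471 to 131224356, + strand), the TCF/LEF factor long used as a readout of Wnt activity, had 3991, 3123 and 2248 normalized reads in P14 controls. Its values were 4702, 2553 and 2815 in P14 dMF1/2. At P16 they were 1360, 1285 and 1424 in controls and 2009, 1582 and 2034 in dMF1/2. Genotypes overlapped at P14 and separated at P16, where the mutants were higher, and each P16 group lay below its own P14 group. The highest Lef1 value of each P14 group was in the library numbered 1, the pair with few matrix reads. From P14 to P16, Lef1 fell by 1.16 ± 0.23 on the log2 scale in controls (adjusted p = 0.0102). Without both of those libraries the difference was -0.97 (adjusted p = 0.0080). In dMF1/2 it was -0.80 ± 0.23 (adjusted p = 0.0695 by limma, 0.0122 by DESeq2, and up to 0.161 over the other alternatives). Without both P14 libraries numbered 1, the dMF1/2 difference shrank to -0.53. At P16 the mutant excess was 0.47 ± 0.11 (adjusted p = 0.0610), or 1.38-fold, and the adjusted p was 0.0135 with the replicate block and from 0.010 to 0.342 over the alternatives. An antisense gene, Gm43352, covers 13.7% of Lef1's exon bases, and without a stated strand setting in counting its reads cannot be set apart.

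Tcf7l1 (chromosome 6, 72626378 to 72789254, - strand), known chiefly as a repressor that holds Wnt targets down in progenitor cells, fell with age in both genotypes. Normalized reads were 1088, 1059 and 1014 in P14 controls and 1102, 1074 and 989 in P14 dMF1/2. At P16 they were 751, 580 and 604 in controls and 594, 664 and 595 in dMF1/2. All P16 values lay below all P14 values, and the genotypes overlapped on each day. It fell by 0.72 ± 0.10 on the log2 scale in controls (adjusted p = 0.0022) and by 0.77 ± 0.10 in dMF1/2 (adjusted p = 0.0013). The genotype difference was 0.0043 at P14, with a 95% interval from -0.19 to 0.20, and -0.048 at P16, from -0.32 to 0.22. Tcf7l2 (chromosome 19, 55741810 to 55933654, + strand), known for its part in gut and metabolic tissue, ranged from 860 to 1230 normalized reads over the 12 libraries. Its genotype difference was 0.13 at P14 (interval -0.098 to 0.36) and 0.16 at P16 (interval -0.094 to 0.41), and it passed no test.

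**Figure D2:**
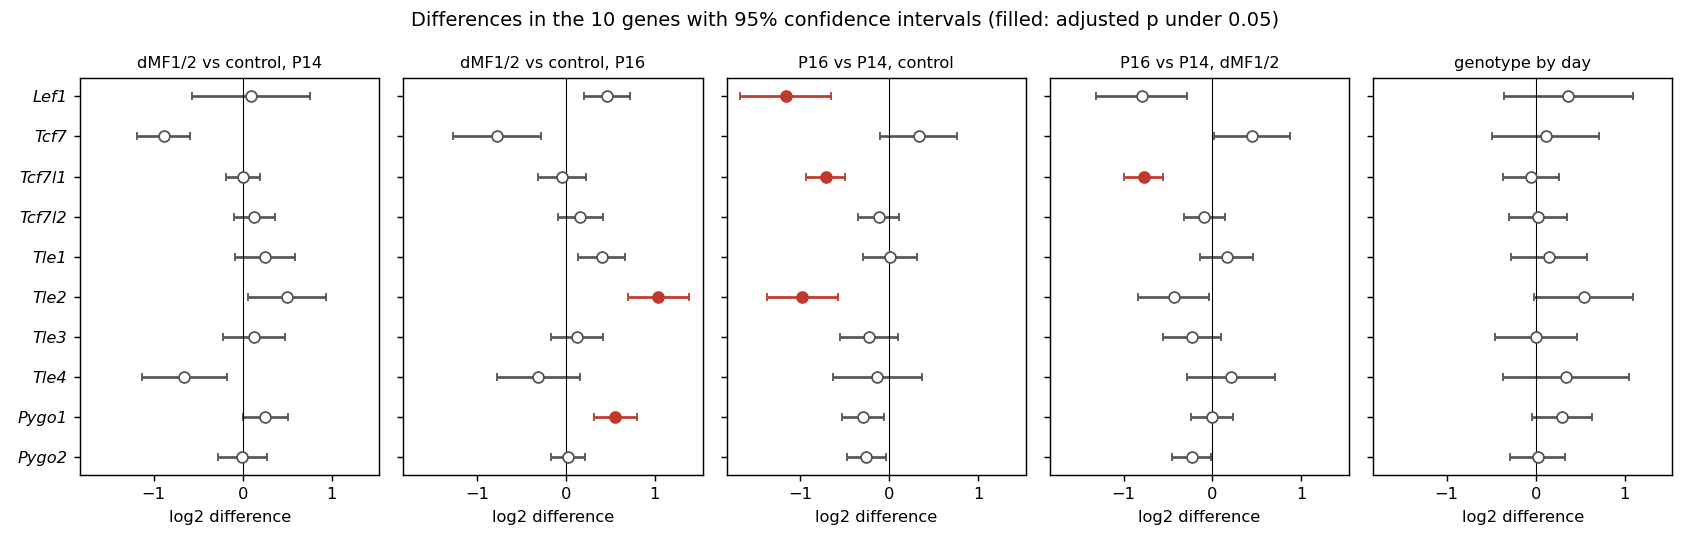
Log2 differences (x axis) of each gene (y axis) in the 5 comparisons, with 95% confidence intervals from limma, n = 3 per group; filled red points have an adjusted p under 0.05. Tle2 and Pygo1 are filled at P16, Lef1, Tcf7l1 and Tle2 in the control panel, Tcf7l1 in the dMF1/2 panel, and none in the P14 or genotype by day panels.

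Tle2 showed the steepest genotype difference of the 10 genes at P16. Groucho-type Tle proteins have no DNA-binding domain and are brought to genes by TCF/LEF and other factors. Tle2 (chromosome 10, 81574561 to 81590845, + strand) had 412, 448 and 288 normalized reads in P14 controls and 610, 462 and 529 in P14 dMF1/2. At P16 it had 192, 188 and 192 in controls and 360, 338 and 492 in dMF1/2. The mutants lay above the controls on both days, and all P16 controls lay below all P14 controls. The log2 difference at P16 was 1.04 ± 0.15 (adjusted p = 0.0111), or 2.06-fold, and from 0.88 to 1.15 with each library left out in turn, with an adjusted p of at most 0.0475. At P14 it was 0.50 ± 0.19 (adjusted p = 0.608). From P14 to P16, Tle2 fell by 0.98 ± 0.18 in controls (adjusted p = 0.0074). The change in dMF1/2 was -0.44 ± 0.18 (adjusted p = 0.173). The difference between these changes was 0.54 ± 0.26 (interval -0.020 to 1.10, adjusted p = 1.0), so a differing course was not shown. The P16 genotype comparison and the control comparison over days share the 3 P16 control libraries.

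Of the other Groucho genes, Tle1 was higher and Tle4 lower in value in dMF1/2. Tle4 (chromosome 19, 14448072 to 14598051, - strand) had 1635, 1261 and 1432 normalized reads in P14 controls and 1248, 744 and 806 in P14 dMF1/2. In P16 controls it had 997, 1347 and 1664 and in P16 dMF1/2 1089, 844 and 1254. Mutant values were below all control values at P14 and overlapped with them at P16. The P14 difference was -0.66 ± 0.20 (adjusted p = 0.479, 0.0259 with the replicate block, and up to 1.0 with a library left out), and the P16 difference was -0.31 ± 0.20 (adjusted p = 0.481). Tle1 (chromosome 4, 72117142 to 72200919, - strand) had 1292, 1673 and 1413 normalized reads in P16 controls and 1957, 1732 and 2048 in P16 dMF1/2. The mutants were higher without overlap, with a difference of 0.40 ± 0.12 (adjusted p = 0.101, and 0.0447 without P16 control 2). At P14 Tle1 ranged from 1303 to 1518 in controls and from 1385 to 1906 in dMF1/2, which overlapped. Tle3 (chromosome 9, 61372366 to 61418497, + strand) ranged from 1215 to 2209 over the 12 libraries, with genotype differences of 0.12 at P14 (interval -0.22 to 0.47) and 0.13 at P16 (interval -0.17 to 0.42).

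Per length, Tle4 led the family in controls, at 253 ± 32.8 at P14 and 234 ± 58.5 at P16, and Tle1 led in dMF1/2, at 198 ± 34.1 and 220 ± 18.7. Tle1 and Tle4 overlapped within every group except P14 controls. Tle2 was last in each group, from 30.6 ± 0.417 in P16 controls to 85.8 ± 11.9 in P14 dMF1/2. The lead depends on the length scaling. In reads not scaled by length, Tle3 was above Tle4 in controls, with means of 1715 and 1443 at P14 and 1466 and 1336 at P16. Unscaled Tle3 (1865) was also above Tle1 (1728) in P14 dMF1/2, while Tle1 (1912) was above Tle3 (1584) in P16 dMF1/2. Tle4 made up 40.2% ± 1.44 and 41.5% ± 5.21 of the summed Groucho reads per kilobase in P14 and P16 controls, against 26.6% ± 3.20 and 30.6% ± 2.13 in dMF1/2. Tle2's share was 5.55% ± 0.740 in P16 controls and 10.5% ± 1.04 in P16 dMF1/2. The family sum itself was 558 ± 71.7 in P16 controls and 606 ± 78.9 in P16 dMF1/2, so its make-up differed in value more than its total.

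**Figure D3:**
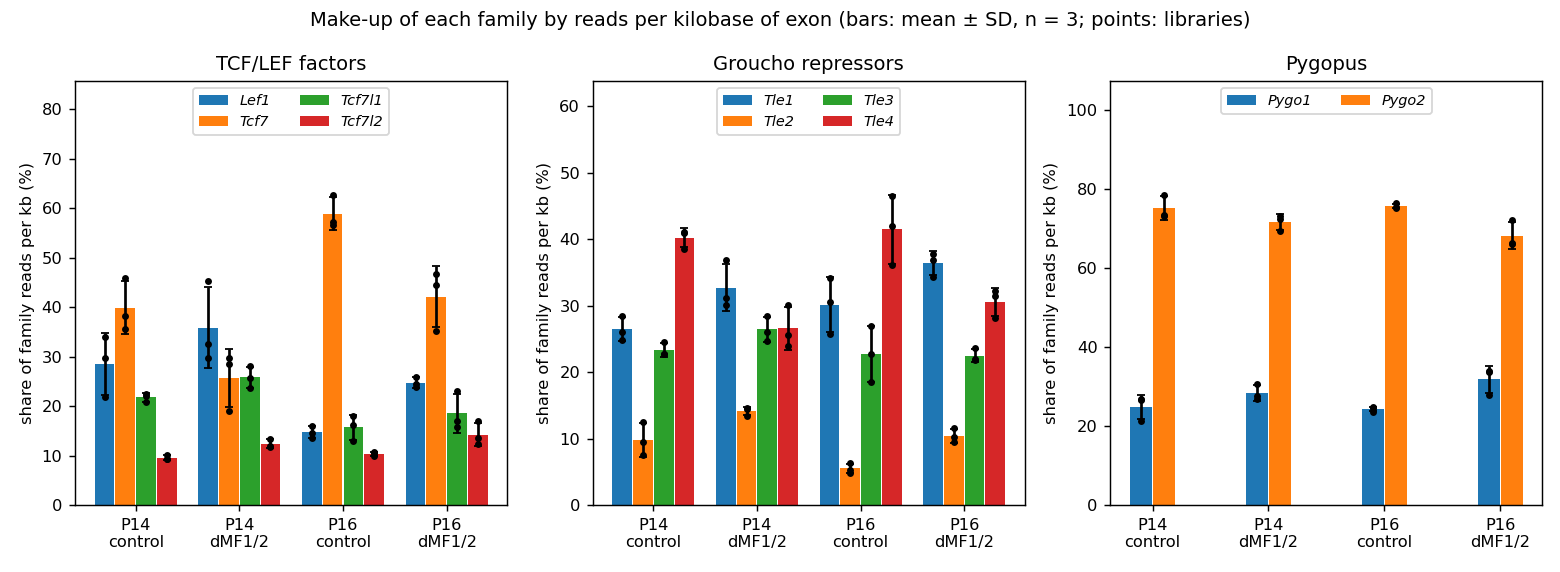
Share (%) of each gene in its family's summed reads per kilobase of exon, by group, with bars for the mean ± SD (n = 3) and points for libraries. Tcf7 and Tle4 take smaller shares in dMF1/2 than in controls on both days, while Tle1, Tle2 and Pygo1 have higher mean shares there.

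The TCF/LEF family shifted in the same descriptive sense. Tcf7 held 40.0% ± 5.30 of its reads per kilobase in P14 controls and 58.9% ± 3.36 in P16 controls, against 25.8% ± 5.89 and 42.2% ± 6.11 in dMF1/2. Lef1 held 14.8% ± 1.23 in P16 controls and 24.8% ± 1.03 in P16 dMF1/2. The family sum was 1232 ± 86.7 and 1050 ± 139 in P14 and P16 controls and 1046 ± 117 and 860 ± 116 in dMF1/2. These shares depend on the length scaling, without which Lef1 had more reads than Tcf7 in P14 controls (means of 3121 and 1286). No test was run on shares.

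Pygopus proteins read methylated histone H3 and bind Bcl9, through which they join beta-catenin. Pygo1 (chromosome 9, 72925645 to 72952181, + strand) had 630, 698 and 632 normalized reads in P14 controls and 892, 716 and 738 in P14 dMF1/2. It had 534, 516 and 547 in P16 controls and 676, 816 and 853 in P16 dMF1/2. Mutants were above controls on both days. The difference was 0.26 ± 0.11 at P14 (adjusted p = 0.685) and 0.55 ± 0.10 at P16 (adjusted p = 0.0273), or 1.47-fold at P16. The P16 call for Pygo1 was lost on leaving out P16 control 1, 2 or 3 or P16 dMF1/2 2 or 3, with an adjusted p of up to 0.108, and its log2 difference ranged from 0.49 to 0.65. Pygo1 differed between days by -0.30 ± 0.11 in controls (adjusted p = 0.0880) and by -0.0012 ± 0.11 in dMF1/2 (adjusted p = 0.996). Pygo2 (chromosome 3, 89430214 to 89435128, + strand), the more widely expressed Pygopus gene, had the higher level per length in every group, for example 209 ± 10.5 against 67.2 ± 1.96 for Pygo1 in P16 controls. In reads not scaled by length, Pygo2 (mean 767) was not above Pygo1 (mean 781) in P16 dMF1/2. Pygo2 ranged from 716 to 1059 normalized reads, with genotype differences of -0.0029 at P14 (interval -0.28 to 0.27) and 0.023 at P16 (interval -0.17 to 0.22). In both genotypes its P16 values lay below its P14 values, by -0.26 ± 0.10 in controls (adjusted p = 0.105) and -0.23 ± 0.10 in dMF1/2 (adjusted p = 0.188).

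Counted over the 10 genes, 0 passed at P14, where 0.0525% of all genes tested did, and 2 at P16, both higher in dMF1/2, where 4.32% did (2.18% higher). At an unadjusted p under 0.05 in limma, 3 of the 10 differed at P14, against 7.32% of all genes. DESeq2 called 1 of the 10 at P14 (Tcf7), where it called 1.55% of all genes, and 4 at P16 (Lef1, Tcf7, Tle2 and Pygo1), where it called 8.51%. With the replicate block, 2 passed at P14 (Tcf7 and Tle4), where 1.68% of all genes did, and the same 4 at P16, where 10.4% did. The genotypes did not overlap for 4 genes at P14, against 12.7% of all genes, and for 5 at P16, against 24.5%. From P14 to P16, 3 genes fell in controls, where 14.5% of all genes were called (8.28% lower). In dMF1/2, 1 fell, where 5.80% were called (3.97% lower). Day groups did not overlap for 5 genes in controls and 3 in dMF1/2, all lower at P16, against 18.4% and 14.4% of all genes lower without overlap. None of the 10 differed between genotypes in its change over days by limma, nor did any other gene (0%). At an unadjusted p under 0.05 none of the 10 did either, against 4.83% of all genes, and DESeq2 and edgeR called none of the 10.

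DP markers moved along the same comparisons as Tle2, Pygo1 and Lef1. Of the 18 DP markers, 6 were higher (Alpl, Alx4, Fgf10, Ndnf, Nog and Prom1) and 2 lower (Crabp1 and Igfbp3) in dMF1/2 at P16, against 2.18% and 2.14% of all genes, and 9 fell and 1 rose in controls from P14 to P16, where 14.5% of all genes were called (8.28% lower). Alx4, a homeobox gene of the DP, had 3099, 5279 and 6098 normalized reads in P16 controls and 13584, 13293 and 18844 in P16 dMF1/2. The median log2 difference of the 18 at P16 was 0.99, beside -0.0043 for all genes, with 14 positive. Their summed reads overlapped, with 160289 to 197125 in P16 controls and 139249 to 178253 in P16 dMF1/2, but this sum leans on Igfbp3, a secreted binder of insulin-like growth factors that went the other way. Igfbp3 had 143003, 66550 and 79797 normalized reads in P16 controls and 26382, 10941 and 14005 in P16 dMF1/2, a difference of -2.51 ± 0.37 (adjusted p = 0.0123). Without Igfbp3 the sum was 54122 to 93739 in P16 controls, below the 112969 to 164247 of P16 dMF1/2 and the 122580 to 185086 of P14 controls. The 12 keratinocyte markers summed to 338 to 899 in P16 controls and 558 to 764 in P16 dMF1/2, and the 10 endothelial markers to 729 to 1712 and 853 to 1193. Without Thy1, which fibroblasts share, the immune list summed to 308 to 463 and 260 to 393. At P16, 8 of the 9 endothelial markers tested were lower in value in dMF1/2 (median -0.83), though 0 passed limma's adjusted threshold, against 4.32% of all genes. From P14 to P16 in controls, 2 of 9 endothelial markers rose and 1 fell, with a median of 1.45 and sums of 1052 to 1465 at P14. Of 4 melanocyte markers tested, Kit and Mitf rose in controls, where the 8 in the tables summed to 544 to 701 at P14 and 897 to 984 at P16, without overlap. Most of that sum was Mitf, which is not particular to melanocytes, at 443 to 832 over the 12 libraries, while the pigment genes Tyr, Pmel, Mlana, Dct and Tyrp1 reached at most 51.6, 25.6, 24.8, 11.9 and 7.91. The 7 dermal sheath markers were all lower in value in dMF1/2 at P16 (median -0.25), 6 of 7 were lower at P16 than at P14 in controls (median -0.22), and 7 of 7 in dMF1/2 (median -0.51), though none passed limma's adjusted threshold or had an unadjusted p under 0.05. The part of all these cell types in the differences of the 10 genes was not tested.

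Among other nuclear partners of beta-catenin, Sox4 and Ctnnb1 were lower in dMF1/2 than in controls at P16. Of the 38 listed, 37 could be tested, and 0 were higher and 2 lower in dMF1/2 than in controls at P16, against 2.18% of all genes higher and 2.14% lower, with a median log2 difference of 0.032 beside -0.0043 for all genes. The first was Sox4, a Sox factor known to bind TCF proteins, with 4182, 3381 and 3515 normalized reads in P16 controls and 1949, 1591 and 2071 in P16 dMF1/2. Sox4 did not overlap between genotypes and differed by -0.98 ± 0.13 (adjusted p = 0.0082). The second was Ctnnb1 itself, which encodes beta-catenin, at -0.66 ± 0.12 (adjusted p = 0.0275). Between days Ctnnb1 rose by 0.57 ± 0.12 in controls (adjusted p = 0.0110) and differed by 0.27 ± 0.12 in dMF1/2 (adjusted p = 0.197). Bcl9 and Bcl9l, the adaptors that link beta-catenin to Pygopus, differed by 0.12 ± 0.13 and 0.26 ± 0.15 at P16, short of the threshold. Bcl9l fell by 0.55 ± 0.14 in controls from P14 to P16 (adjusted p = 0.0230). Aes, an older symbol of the short Groucho-like gene Tle5, had 3436, 3196 and 3201 normalized reads in P14 controls and 2417, 2630 and 2365 in P16 controls. It fell by 0.41 ± 0.080 in controls (adjusted p = 0.0094) and by 0.33 ± 0.080 in dMF1/2 (adjusted p = 0.0379), with no overlap between days. In controls over days, 2 of the 37 rose (Ctnnb1 and Tbl1xr1) and 5 fell (Aes, Bcl9l, Cby1, Hdac1 and Ruvbl1), against 14.5% of all genes called. In dMF1/2 over days, 0 rose and 2 fell, Aes and Smarca4 (-0.32 ± 0.082, adjusted p = 0.0422), against 5.80% called (3.97% lower). At P14, 0 of the 37 passed, against 0.0525% of all genes, and 2 had an unadjusted p under 0.05 in limma, against 7.32%.

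**Figure D4:**
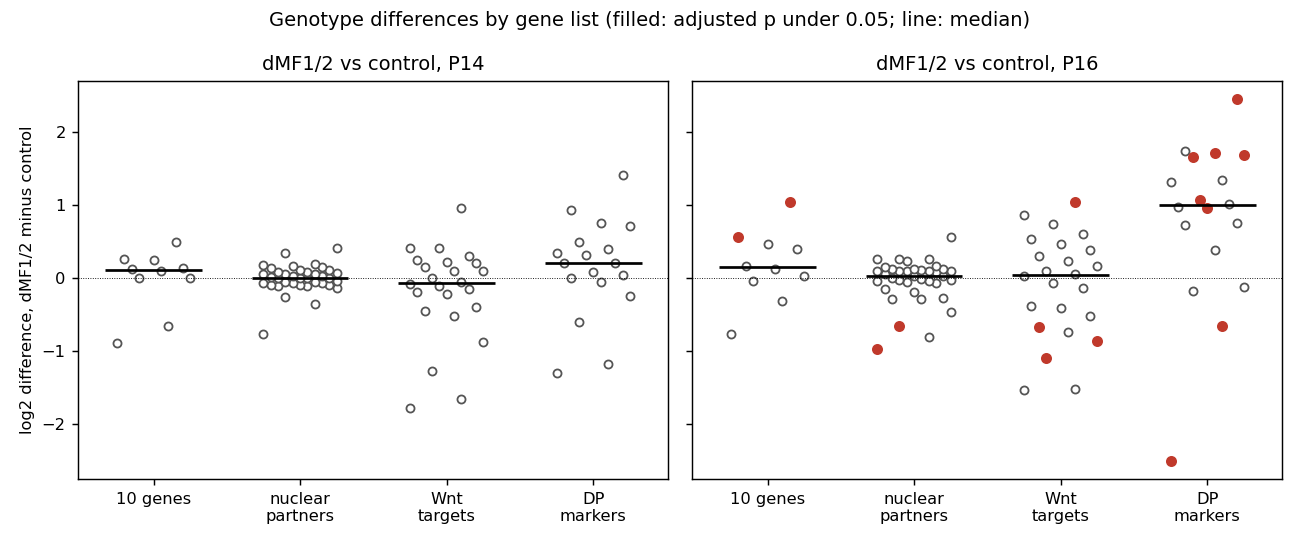
Log2 difference, dMF1/2 minus control (y axis), at P14 and P16 for the 10 genes, 37 nuclear partners, 24 Wnt targets and 18 DP markers, 1 point per gene, filled where the adjusted p is under 0.05, with the median as a line. At P16 filled points lie above 0 for 2 of the 10 genes, below 0 for both called partners, and on both sides among targets and DP markers.

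Genes known as targets of canonical Wnt signaling moved both ways at P16. Of 30 listed, 24 could be tested, 1 was higher and 3 were lower in dMF1/2, against 2.18% and 2.14% of all genes, and the median log2 difference was 0.038 beside -0.0043 for all genes. Bambi, a membrane protein that damps TGF-beta signaling, had 1016, 1643 and 1712 normalized reads in P16 controls and 2992, 2312 and 3589 in P16 dMF1/2, a difference of 1.05 ± 0.22 (adjusted p = 0.0425). Dkk2, a secreted Wnt antagonist, had 13033, 14666 and 14500 in P16 controls and 8177, 4926 and 7032 in P16 dMF1/2, a difference of -1.09 ± 0.18 (adjusted p = 0.0169). Neither gene overlapped between genotypes. Myc, a growth regulator, differed by -0.86 ± 0.19 (adjusted p = 0.0426), and Twist1, a mesenchymal transcription factor, by -0.67 ± 0.11 (adjusted p = 0.0169). At P14, 0 of the 24 passed, against 0.0525% of all genes, and 7 had an unadjusted p under 0.05 in limma, against 7.32%.

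The genes whose profile over the 12 libraries came nearest were sought for the 4 genes called in any comparison, among 10229 others that averaged 100 or more normalized reads. Nearness was the root-mean-square difference of log2 values after each gene was centered on its own mean, over 12 libraries with groups and scaling in common. For Tle2 the nearest was En1, a homeobox gene of skin patterning, at 0.11, followed by Apc2 at 0.18 and Sdk2 at 0.19, against 0.57 for Tle2's own spread about its mean. En1 averaged 842 in P14 controls, 1163 in P14 dMF1/2, 468 in P16 controls and 854 in P16 dMF1/2. For Lef1 they were Apoe (0.13), Sox12 (0.17) and Zfp362 (0.19), against a spread of 0.58. Apoe, a lipid carrier, averaged 17405 and 20621 in P14 controls and dMF1/2 and 7843 and 10993 at P16. For Tcf7l1 they were Zyx (0.11), Rpl27 (0.11) and Pqbp1 (0.12), against 0.39. Pygo1 was nearest to Tbl2 (0.10), Ncam1 (0.10) and Tm9sf4 (0.10), against 0.25, so its own spread was small.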

How the data were processed

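RNA of YFP-positive DP cells, sorted by FACS, was sequenced from 12 libraries (3 per group). By the study's methods and the submitters' processing notes, ribosomal RNA was depleted, directional libraries were read single-end, and reads were trimmed with Trimmomatic, mapped with TopHat2 to mm10 and counted per Ensembl gene (GRCm38.p4) with HTSeq; strand settings are not given in the sources used here. The signal values the authors deposited are read counts divided by DESeq2 size factors, 1 table per day. Their step sizes gave whole reads for 100% of values (tolerance 0.01 reads). Authors' columns of means, fold changes and p-values were not used.

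Within a day, limma (3.58.1) with a variance trend was fitted to log2(value + 1) for genes averaging 10 or more (13334 at P14, 13457 at P16). For changes over days and the interaction, recovered reads of the 14986 genes in both tables were rescaled together by median of ratios, and 13415 were fitted in 4 groups. Printed library values are on that scale, which moved the 10 genes by -2.23% to 1.43%. Each gene had 184 to 5516 reads per library, and p was adjusted by Benjamini-Hochberg over all genes tested. R 4.3.3 was used, and the fits were tested on simulated data. Exon lengths are from GENCODE.

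Deviations of same-numbered libraries correlated within a day at 0.586, 0.389 and 0.304 (P14) and 0.256, 0.293 and 0.311 (P16), so the numbers were taken to pair libraries within a day. This pairing was inferred from the same data. No label states it, and libraries with differing numbers were not compared. Alternatives were DESeq2 (1.42.0), edgeR (4.0.16), TMM, pseudocounts of 0.1 and 10, other filters, the block, other library sets and leaving out each library. Leaving out both P14 libraries numbered 1 was added after seeing the data. The 10 genes and the lists were chosen with earlier results of these data known. Named beside the 10 genes were partners and Wnt targets past an adjusted p of 0.05 in a genotype comparison, or the 6 with the largest change, the 3 nearest profiles of each called gene, and Fgfr1 and Fgfr2. Bcl9, Bcl9l, Aes, the partners called over days, and the DP and melanocyte markers were named after their values were seen.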

Additional observations from a re-analysis of the deposited data

How the results depend on the processing

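Leaving out single libraries, the 10 genes gave 1 to 2 calls at P16 (Tle2 in every case, with Tle1 added without P16 control 2, Lef1 without P16 dMF1/2 2 and Pygo1 only without P16 dMF1/2 1), 3 to 4 in controls over days (Lef1, Tcf7l1 and Tle2 in every case, with Pygo2 added without P14 control 3), 1 to 2 in dMF1/2 over days (Tcf7l1 in every case, with Tcf7 added without P16 dMF1/2 2), and none at P14 or for the interaction. With the replicate block, 2 passed at P14 and 4 at P16, against 0 and 2 without it, while calls over all genes went from 7 to 224 and from 582 to 1403. DESeq2 gave 1 call at P14 (Tcf7), 4 at P16 (Lef1, Tcf7, Tle2 and Pygo1) and 2 in dMF1/2 over days (Lef1 and Tcf7l1), with 207, 1123 and 1341 calls over all genes (against 778 by limma for the last), and one fit of all 12 libraries gave 3 at P16 (Tcf7, Tle2 and Pygo1). Across days the same numbers did not pair libraries (correlations from -0.162 to 0.208), and a block on them left 0 calls in controls, with an adjusted p of 0.0886 for Lef1, 0.0804 for Tcf7l1 and 0.0905 for Tle2, and 1 in dMF1/2, with 14 and 137 calls over all genes. Fitting each genotype's 6 libraries alone gave the same 3 and 1 of the 10 genes over days but gave 806 (controls, against 1951) and 322 (dMF1/2, against 778) calls over all genes. The causes were not tested. For each library left out and for the fit of all 12 libraries, calls over all genes are not given here. A call gained or lost in those settings is thus not shown to be particular to that gene. Pseudocounts of 0.1 and 10, no filter, a minimum of 10 reads in every library, TMM and edgeR changed none of the 5 counts of calls.

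Signs turned for the following differences, none past the threshold as reported. Tle1 over days in controls was -0.012 with TMM and -0.0036 with edgeR, and the Tle3 interaction was -0.012 with DESeq2 and -0.0023 with edgeR. Without both P14 libraries numbered 1, Tcf7l1 at P14 was -0.0019, Pygo2 at P14 0.095, Pygo1 over days in dMF1/2 0.097 and the Pygo2 interaction -0.074. Leaving out single libraries, log2 differences between genotypes at P14 ranged from -0.17 to 0.29 (Lef1), -0.026 to 0.049 (Tcf7l1), -0.0026 to 0.24 (Tle3) and -0.088 to 0.11 (Pygo2). At P16 they ranged from -0.12 to 0.066 (Tcf7l1), -6.1e-07 to 0.22 (Tle3) and -0.017 to 0.061 (Pygo2). Over days they ranged from -0.093 to 0.093 (Tle1, controls), -0.31 to 0.061 (Tle4, controls) and -0.068 to 0.10 (Pygo1, dMF1/2). Interactions ranged from -0.049 to 0.35 (Tcf7), -0.13 to 0.058 (Tcf7l1), -0.052 to 0.12 (Tcf7l2), -0.0029 to 0.25 (Tle1), -0.13 to 0.13 (Tle3) and -0.091 to 0.11 (Pygo2). Shares within a family depend on the length scaling, which moved 36 of the 40 means by more than 1 SD. With 3 libraries a group, differences near the threshold rest on few samples.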
